A study of Mus musculus with 4 samples.

Results

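Endothelial identity genes are 10 genes by which the cells lining blood vessels are recognised: Pecam1, Esam, Emcn, Cd34, Eng, Tek, Tie1, Vwf, Selp and Sele. They were chosen by symbol, and all 10 were found among the 22222 gene symbols of the deposited table. RNA-seq was available for 4 libraries of sorted cells from keratoacanthomas, mouse skin tumours known to shrink spontaneously, which had been induced by treating the mice with the carcinogen DMBA for 20 weeks. Tumours of 2 mice were collected while still on DMBA, and those of 2 other mice after 1 week without it. All 4 mice had thus received DMBA, and no tumour-free skin is part of the comparison. The sort kept cells with both Tomato and P-cadherin, which are labelled epithelial, while the driver of the Tomato reporter, the strain, the sex and the age of the mice are not stated in the sources at hand.

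Endothelial cells form the inner wall of every vessel. They are held together by adhesion molecules such as the products of Pecam1 and Esam, receive survival and maturation signals through the angiopoietin receptor system of Tek and Tie1, and store the product of Vwf together with P-selectin in granules that fuse with the surface on activation. In skin, venules display the selectins encoded by Selp and Sele to slow passing leukocytes. These genes are not typical markers of keratinocytes, although Cd34 in mouse skin also marks stem cells of the hair follicle bulge. The part of keratinocyte RNA in their levels was not tested.

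The libraries differed in their levels of cell type markers, and on-DMBA replicate 1 stood apart. Levels are in scaled CPM (reads divided by the library size after the scaling of the authors), and the libraries held between 5551937 and 9678682 reads. The 9 genes listed as basal keratinocyte markers summed to 46067 and 542 scaled CPM under DMBA and to 4401 and 3418 at 1 week, with replicate 1 named before replicate 2 here and throughout. The 15 leukocyte markers summed to 15.7 and 12716 under DMBA against 5305 and 9979 at 1 week, and the 12 fibroblast markers to 227 and 41344 under DMBA against 46966 and 49548 at 1 week. Markers of cells other than the labelled epithelium were thus present in 3 of the 4 libraries and low in on-DMBA replicate 1. In RNA from a mixture of cells, fewer cells of a type and less RNA per cell cannot be told apart. The fitted differences of the 10 genes, and the counts over the other gene lists, are therefore given also without on-DMBA replicate 1. On-DMBA replicate 2 in turn had the lowest keratinocyte sum. Without replicate 2, the median log2 difference, 1 week minus on DMBA, was 6.31 for the 10 endothelial genes. In the same fit it was 7.20 for the leukocyte, 7.07 for the fibroblast and -3.38 for the basal keratinocyte genes.

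All 10 endothelial identity genes were at a higher level in each library taken 1 week after DMBA than in either library on DMBA. Groups did not overlap in this direction at 14.0% of the 15419 genes tested, and in the opposite direction at 9.14%. A gene was tested if 2 or more libraries reached 1 scaled CPM. All 10 genes were among those tested, each with 1 scaled CPM or more in at least 1 library on DMBA as well as in both later ones. Together they summed to 54.0 and 246 scaled CPM under DMBA against 864 and 1841 at 1 week. The median log2 difference of the 10 genes, 1 week minus on DMBA, was 4.50, against -0.02 over all genes tested. None of the 10 passed the test across all genes: limma on log2(scaled CPM + 0.5) gave each an adjusted p of 1.00 and called 0.0% of genes in either direction. At an unadjusted p under 0.05 limma had 352 genes higher and 30 lower, and 9 of the 10 endothelial genes, all but Eng, were among those higher (2.28% of genes tested, against 0.195% lower). On recovered reads edgeR called 0 genes, and its unadjusted p was under 0.05 for 229 genes higher and 42 genes lower, with 2 of the 10 endothelial genes (Cd34 and Selp) among those higher. DESeq2 called 16 genes higher (0.104%) and 3 lower (0.0195%), with none of the 10 among them and a smallest adjusted p of 0.221, for Selp.

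**Figure D1:**
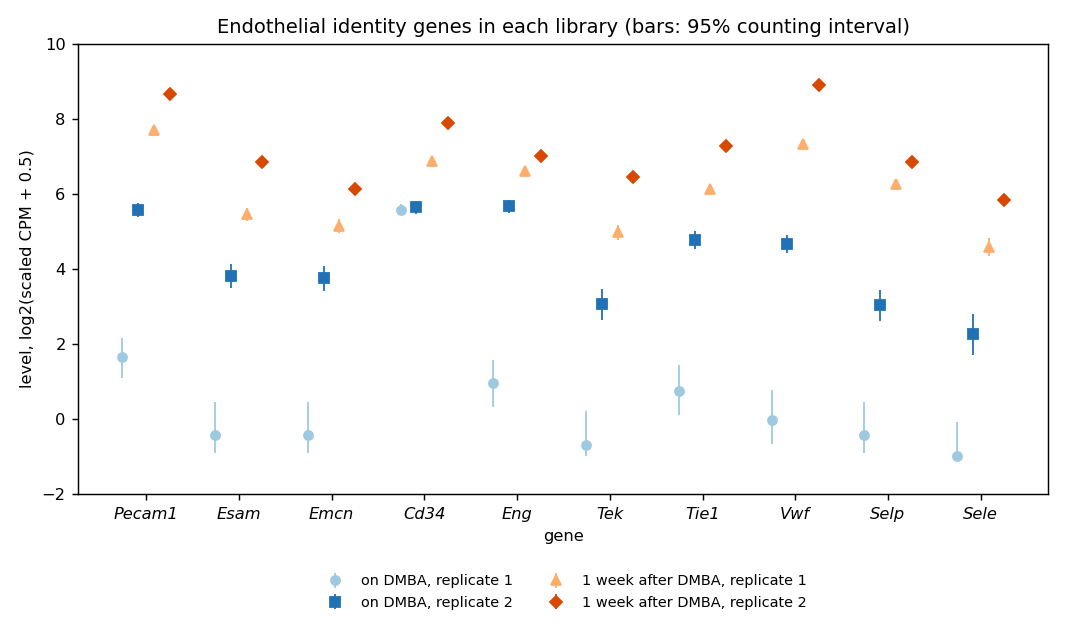
Level of each of the 10 genes in each library, as log2(scaled CPM + 0.5) on the vertical axis; bars are 95% exact Poisson intervals of the read count and cover counting error only. For every gene both 1-week libraries lie above both on-DMBA libraries, and on-DMBA replicate 1 lies far below the rest except for Cd34.

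Without on-DMBA replicate 1 the direction was the same, as the lack of overlap had already fixed, and the differences were smaller. Left with on-DMBA replicate 2 alone as the comparator, limma called 8 of the 10 genes higher at 1 week, against 2.35% of genes tested called higher and 0.999% called lower, with a median log2 difference of 2.47. In that fit the single library on DMBA is assumed to vary like the pair taken at 1 week. Each gene's spread is also drawn by limma towards a value shared by genes of similar level. The standard error was thus 0.57 for Eng and 0.58 for Vwf, while their standard deviations of log2 levels at 1 week were 0.28 and 1.10. With both on-DMBA libraries, the standard deviation of log2 levels was larger on DMBA than at 1 week for every gene but Cd34. It was 2.78 against 0.66 for Pecam1, 2.46 against 0.41 for Selp and 0.0387 against 0.72 for Cd34. Calls and adjusted p-values from that fit, here and below, leave out the spread on DMBA. They also do not fully carry each gene's own spread at 1 week. The 2 genes that did not pass were Eng and Cd34. With on-DMBA replicate 1 alone as the comparator all 10 were called higher (14.3% of genes tested), with a median of 6.31. Without either of the 1-week libraries none was called, and the median was 5.11 without replicate 1 and 3.78 without replicate 2.

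**Figure D2:**
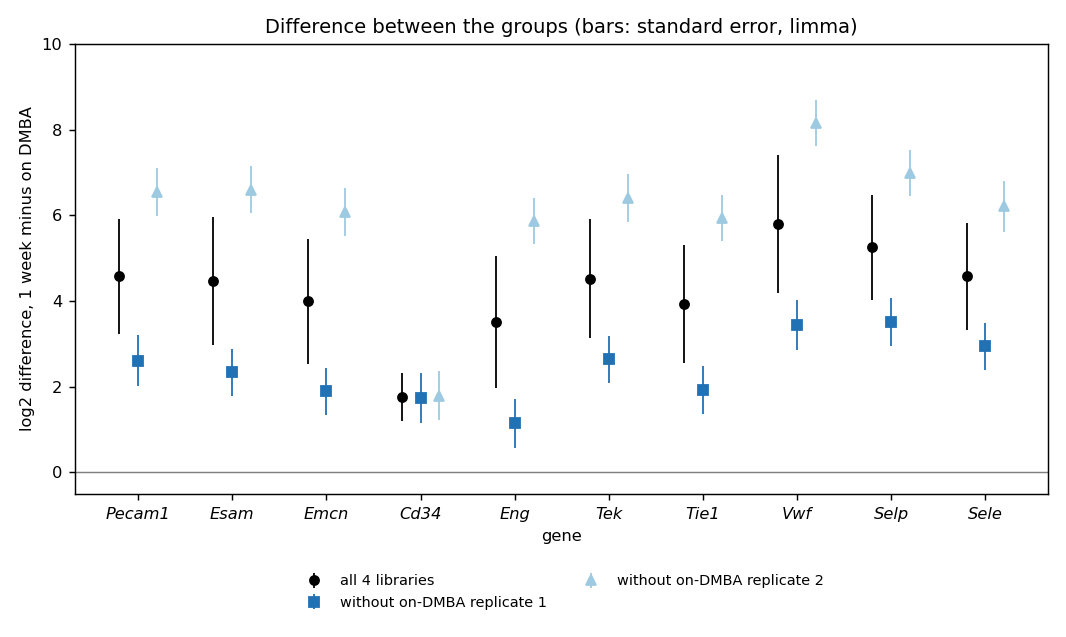
Log2 difference of each gene, 1 week minus on DMBA, from limma with all 4 libraries and without either on-DMBA library; bars are standard errors. Every value is above 0, Cd34 is at about the same value in all 3 fits, and Eng has the smallest value (1.15) without on-DMBA replicate 1.

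The junction and surface genes were Pecam1, Esam, Emcn and Cd34. Pecam1, whose product PECAM-1 (CD31) joins endothelial cells at their contacts, was at 2.61 and 47.2 scaled CPM under DMBA against 209 and 402 at 1 week. The groups did not overlap, and both 1-week libraries were also far above the higher library on DMBA. Its log2 difference was 4.58 (SE 1.33, limma), and 2.61 (SE 0.59, limma adjusted p = 0.000841) without on-DMBA replicate 1. Esam, an adhesion molecule of endothelial tight junctions that platelets also carry, was at 0.237 and 13.6 under DMBA against 43.6 and 116 at 1 week. Emcn, which encodes the sialomucin endomucin of capillaries and venules, was at 0.237 and 12.9 under DMBA against 35.0 and 69.9 at 1 week. In both genes on-DMBA replicate 1 rested on 2 reads, and the groups did not overlap. Without that library the log2 difference was 2.34 for Esam (limma adjusted p = 0.0016) and 1.90 for Emcn (limma adjusted p = 0.0198).

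Cd34 was the exception on DMBA. This sialomucin of endothelial cells, blood progenitors, some dermal fibroblasts and the hair follicle bulge was at 47.5 and 49.4 scaled CPM under DMBA against 117 and 236 at 1 week. Both on-DMBA libraries stood at the same level, and replicate 1 held 400 Cd34 reads against 22 for Pecam1. The log2 difference was 1.77 (SE 0.57) with all libraries and 1.74 without on-DMBA replicate 1 (limma adjusted p = 0.0716). Beside this, Krt15, a keratin of the bulge, was at 403 and 8.26 under DMBA against 90.8 and 92.4 at 1 week. The 9 bulge markers summed to 1730.3 and 1366 under DMBA against 885 and 1055 at 1 week. On average over the libraries they were led by Gas6 and Itga6, which other skin cells also express. In on-DMBA replicate 1 the highest were Itga6, at 976, and Krt15, at 403. Gas6, a ligand of TAM receptors, was at 121 and 1026 under DMBA against 385 and 514 at 1 week, and the part of bulge or fibroblast RNA in the Cd34 level was not tested.

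Eng, which encodes the TGF-beta co-receptor endoglin and is also made by macrophages and fibroblasts, was at 1.42 and 50.6 scaled CPM under DMBA against 98.1 and 129 at 1 week. The groups did not overlap, but the later libraries were only 1.94 times (95% counting interval 1.68 to 2.24) and 2.56 times (2.23 to 2.93) the level of on-DMBA replicate 2, the smallest of the 10 genes in each library. Its log2 difference was 3.51 (SE 1.55, limma) with all libraries and 1.15 without on-DMBA replicate 1 (limma adjusted p = 0.533). Acvrl1, the receptor kinase that works with endoglin, was at 6.77 and 55.3 under DMBA against 81.9 and 91.4 at 1 week, without overlap and named after its values were seen (log2 difference 0.64 without on-DMBA replicate 1, limma adjusted p = 1.00). The signalling receptor Tgfbr2 was at 133 and 780.0 under DMBA against 333 and 420 at 1 week, highest in on-DMBA replicate 2.

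Tek and Tie1 encode the receptor tyrosine kinases of the angiopoietin system. Tek, whose product TIE2 binds the angiopoietins, was at 0.119 and 7.90 scaled CPM under DMBA against 31.1 and 86.4 at 1 week. Tie1, an orphan partner of TIE2, was at 1.19 and 26.9 under DMBA against 69.4 and 154 at 1 week. Both genes were without overlap between the groups, and both were higher in 1-week replicate 2 than in replicate 1. Without on-DMBA replicate 1 the log2 difference was 2.64 for Tek (limma adjusted p = 0.00014) and 1.92 for Tie1 (limma adjusted p = 0.0237). Reads of Tek per read of Tie1 were 0.293 in on-DMBA replicate 2 (95% counting interval 0.205 to 0.413), 0.448 in 1-week replicate 1 (0.377 to 0.531) and 0.562 in replicate 2 (0.508 to 0.621). The ligands were measured as well. Angpt2, the ligand that endothelial cells release on activation, was at 3.92 and 75.6 under DMBA against 64.4 and 143 at 1 week, with overlapping groups. Angpt1, the activating ligand made by mural and stromal cells, was at 0.475 and 51.7 under DMBA against 7.50 and 19.5 at 1 week, and without on-DMBA replicate 1 limma called it lower (log2 difference -2.04, adjusted p = 0.00804). Ptprb, the phosphatase that acts on TIE2, was at 1.19 and 31.8 under DMBA against 83.3 and 239 at 1 week, without overlap, and was named after its values were seen.

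Vwf and the selectins are genes of haemostasis and leukocyte capture. Vwf, which encodes the von Willebrand factor that tethers platelets, was at 0.475 and 24.9 scaled CPM under DMBA against 161 and 477 at 1 week. It had the largest log2 difference of the 10 genes with all libraries, 5.80 (SE 1.61, limma), 3 in rank by size among the genes tested, and 3.45 without on-DMBA replicate 1 (limma adjusted p = 9.53e-07). Selp, the P-selectin gene of endothelial granules and platelets, was at 0.237 and 7.72 under DMBA against 76.1 and 114 at 1 week. Its log2 difference was 5.25 (SE 1.22, limma) and, without on-DMBA replicate 1, 3.51 (limma adjusted p = 7.64e-08), the largest of the 10 genes in that fit. Sele, which encodes the E-selectin that cytokines induce on endothelium, was at 0 and 4.31 under DMBA against 23.6 and 56.5 at 1 week. The 0 in on-DMBA replicate 1 allows up to 3 reads, or 0.356 scaled CPM, and the two-sided exact interval drawn in the plot of levels by library reaches 0.438. Without that library the log2 difference of Sele was 2.95 (limma adjusted p = 1.18e-05). Against on-DMBA replicate 2, the 1-week libraries held 9.86 times (95% counting interval 7.21 to 13.8) and 14.8 times (10.9 to 20.6) as much Selp and 5.48 times (3.55 to 8.82) and 13.1 times (8.68 to 20.7) as much Sele. For all 3 genes the groups did not overlap and both later libraries were above both earlier ones by several fold.

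Groups were without overlap in the same direction for all 10 genes. Among these, the promoters of both selectin genes and both TIE receptor genes are shown. They are the 250 bases before the transcription start in RefSeq on GRCm38.p6, a later build than the mm9 used for the deposited table, at chr1:164047984-164048233 (plus strand) for Sele, chr1:164115014-164115263 (plus strand) for Selp, chr4:94739039-94739288 (plus strand) for Tek and chr4:118489850-118490099 (minus strand) for Tie1. Capitals mark matches to AGGAAG, the core bound by ETS factors that act at many endothelial promoters, or to a loose NF-kB motif, 3 G and 2 C with any 5 bases between, on either strand.
Sele: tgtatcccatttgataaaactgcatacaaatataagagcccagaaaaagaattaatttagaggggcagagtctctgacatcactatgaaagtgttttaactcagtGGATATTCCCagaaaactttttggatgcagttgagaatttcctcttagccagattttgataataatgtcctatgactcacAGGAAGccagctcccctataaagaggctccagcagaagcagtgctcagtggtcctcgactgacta
Selp: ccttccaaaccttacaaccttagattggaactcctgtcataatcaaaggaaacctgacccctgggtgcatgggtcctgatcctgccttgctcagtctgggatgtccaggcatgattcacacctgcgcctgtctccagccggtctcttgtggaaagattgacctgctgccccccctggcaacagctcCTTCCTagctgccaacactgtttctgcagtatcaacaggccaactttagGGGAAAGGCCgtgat
Tek: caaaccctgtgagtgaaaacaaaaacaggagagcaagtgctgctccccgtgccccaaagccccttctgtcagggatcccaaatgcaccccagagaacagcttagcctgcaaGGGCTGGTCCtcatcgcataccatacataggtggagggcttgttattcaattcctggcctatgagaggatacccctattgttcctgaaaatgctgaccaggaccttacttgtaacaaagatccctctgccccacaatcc
Tie1: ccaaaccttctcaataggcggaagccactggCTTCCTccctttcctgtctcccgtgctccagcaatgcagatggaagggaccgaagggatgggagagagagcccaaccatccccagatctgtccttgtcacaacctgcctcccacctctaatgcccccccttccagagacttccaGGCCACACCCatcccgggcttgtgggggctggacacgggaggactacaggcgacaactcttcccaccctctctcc
In Sele the ETS match lies 65 to 60 bases and the NF-kB match 145 to 136 bases before the start, and a TATAAA box lies 49 to 44 bases before it. In Selp the matches lie 64 to 59 and 15 to 6 bases before the start, and in Tie1 219 to 214 and 75 to 66 bases before it. Tek had an NF-kB match alone, 139 to 130 bases before the start. Promoters of 7 of the 10 genes could be matched. AGGAAG was in 6 of these 7 and in 29.5% of all 32851 windows, the NF-kB motif in 6 and 45.8%, TATAAA in 1 and 12.4%, and the GATA motif AGATAA in 0 and 9.99%, with both strands searched and no overlap between motifs in the 4 sequences shown. A match describes letters and not a bound site.

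The 2 libraries taken at 1 week did not hold the genes at the same level. All 10 were higher in replicate 2, as were 62.9% of genes tested, by 1.32 times (95% counting interval 1.19 to 1.46) for Eng up to 2.96 times (2.76 to 3.18) for Vwf. Of the 10, 6 differed by at least 2-fold, against 7.45% of genes tested. These intervals exclude a ratio of 1, so the 2 libraries differed by more than counting error. With 1 library per mouse, a difference between mice cannot be told apart from a difference between libraries. On DMBA the spread was wider still: replicate 2 was above replicate 1 by at least 2-fold in 9 of the 10 genes (29.9% of genes tested), and in replicate 1 these 9 genes rested on 0 to 22 reads each.

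Set against Pecam1 within each library, the genes were not in a fixed proportion. Vwf gave 52.9 reads per 100 Pecam1 reads in on-DMBA replicate 2 (95% counting interval 42.7 to 65.2), 76.9 in 1-week replicate 1 (70.9 to 83.5) and 119 in 1-week replicate 2 (113 to 125). Selp gave 16.3 (11.6 to 22.6), 36.3 (32.7 to 40.3) and 28.4 (26.2 to 30.8) in the same order. Both were higher per Pecam1 read in each 1-week library than in on-DMBA replicate 2. Eng went the other way, with 107 (90.3 to 127), 46.9 (42.6 to 51.6) and 32.2 (29.8 to 34.7). Cd34 (105, 55.7 and 58.8) and Tie1 (57.0, 33.1 and 38.3) were also lower per Pecam1 read at 1 week, whereas for Tek (16.7, 14.9 and 21.5), Esam (28.9, 20.8 and 28.8) and Sele (9.13, 11.3 and 14.1) the interval of on-DMBA replicate 2 overlapped that of at least 1 later library. Emcn gave 27.4, 16.7 and 17.4. With 1 library on DMBA in these ratios, they compare libraries and not conditions. In on-DMBA replicate 1 the Pecam1 count was 22, and Cd34 alone exceeded it, at 1818 reads per 100.

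**Figure D3:**
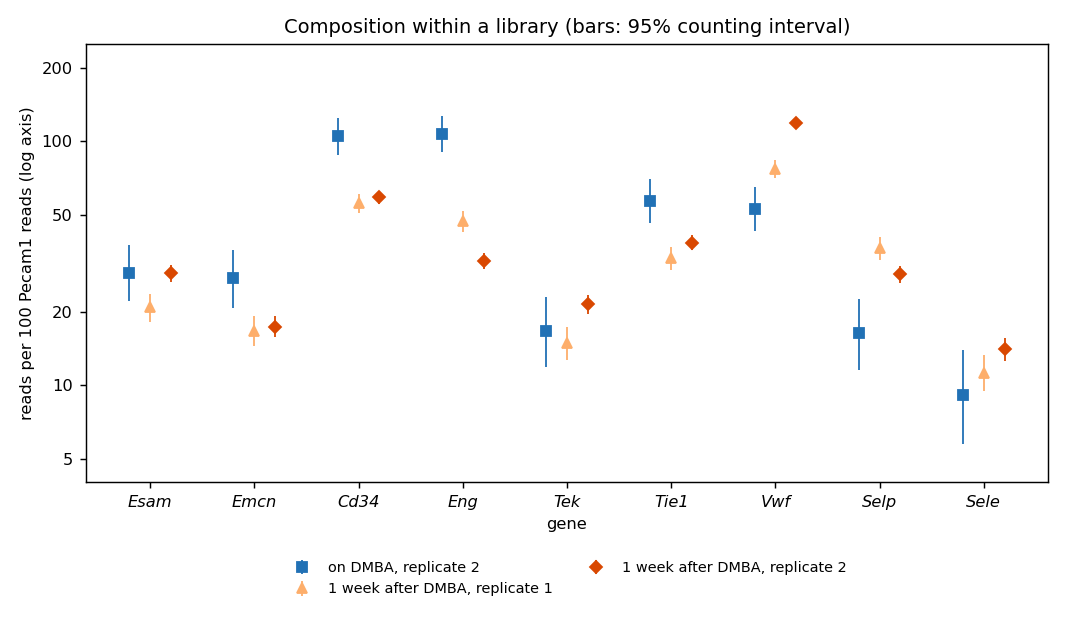
Reads of each gene per 100 Pecam1 reads in the same library (log axis) for the 3 libraries with 263 or more Pecam1 reads; bars are 95% exact counting intervals. Vwf and Selp lie higher and Eng, Cd34, Tie1 and Emcn lower in both 1-week libraries than in on-DMBA replicate 2.

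Per kilobase of exon (GENCODE vM21 lengths, since the annotation used for counting is not named in the sources at hand), Pecam1 led at 1 week with 33.6 and 64.5 scaled CPM per kb. It was followed by the means of Eng (28.1), Esam (27.8), Cd34 (24.2), Tie1 (22.7), Selp (21.6), Vwf (19.9), Sele (13.8), Tek (12.5) and Emcn (9.70). Only Pecam1 and Eng (24.2 and 32.0), of the neighbours in this order, did not overlap between the 1-week replicates. In on-DMBA replicate 2 the order began with Eng at 12.5, Pecam1 at 7.58 and Cd34 at 6.77, and ended with Vwf at 1.55 and Sele at 1.48. In on-DMBA replicate 1 Cd34 was at 6.52 and the other 9 were at or below 0.419. Exons of 3 of the genes overlap exons of a gene on the other strand, Eng with Fpgs over 61 bases, Cd34 with Gm16897 over 148 bases and Selp with Gm16548 over 438 bases and with Gm16587 over 186 bases. Gm16548 was at or below 0.469 scaled CPM and Gm16897 at or below 4.69 in every library, while Fpgs was at 30.6 and 12.0 under DMBA against 17.3 and 19.7 at 1 week.

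A wider list of 33 vascular endothelial genes was mostly higher at 1 week as well. In 29 of them both 1-week libraries were above both on-DMBA libraries (14.0% of genes tested) and in 0 below, with a median log2 difference of 3.47 and 0 past the threshold in limma. Without on-DMBA replicate 1, limma called 17 of the 33 higher (2.35% of genes tested) and 0 lower (0.999%), and their median was 1.83. Cdh5, the VE-cadherin of endothelial junctions, was at 1.31 and 41.5 scaled CPM under DMBA against 81.1 and 166 at 1 week (log2 difference 3.74, SE 1.52). Kdr, the main VEGF receptor, was at 0.594 and 29.4 under DMBA against 97.8 and 208 at 1 week (log2 difference 4.65, SE 1.59). Flt1, a VEGF receptor that also acts as a decoy, was at 0.712 and 23.0 under DMBA against 110.0 and 155 at 1 week (log2 difference 4.62, SE 1.42). Cldn5, the endothelial claudin, had a log2 difference of 3.84 (SE 1.51). In none of these 4 did the groups overlap, and without on-DMBA replicate 1 limma called Kdr (2.26, adjusted p = 0.00423) and Flt1 (2.48, adjusted p = 0.000939) but not Cdh5 (1.47, adjusted p = 0.186) or Cldn5 (1.62, adjusted p = 0.0804). Plvap, a diaphragm protein of fenestrated capillaries, was at 0.475 and 31.2 under DMBA against 95.6 and 251 at 1 week, and Egfl7, an angiogenic secreted protein, at 4.63 and 27.8 under DMBA against 105 and 236 at 1 week. The 4 listed genes with overlapping groups were Cd93 and, named after their values were seen, Fli1, Calcrl and Sox7. Cd93, which myeloid cells share, was at 3.56 and 474 under DMBA against 418 and 730 at 1 week. Fli1, an ETS factor of endothelial and blood cells, was at 0.356 and 152 under DMBA against 77.4 and 118 at 1 week. Calcrl was at 4.51 and 98.9 under DMBA against 44.5 and 157 at 1 week. Sox7 was at 20.4 and 2.51 under DMBA against 9.22 and 6.85 at 1 week and so was highest in on-DMBA replicate 1.

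Genes of mural cells, which wrap vessels, were mostly higher at 1 week too, and their part in the endothelial result was not tested. Of 11 listed pericyte and smooth muscle genes, 10 were higher at 1 week without overlap (14.0% of genes tested), the median log2 difference was 3.57, and limma called 0 with all libraries. Without on-DMBA replicate 1 it called 5 of the 11 higher (2.35% of genes tested), with a median of 1.83. Rgs5, a pericyte regulator of G protein signalling, was at 0.356 and 36.6 under DMBA against 150.0 and 461 at 1 week, and was among the 5 (limma adjusted p = 0.000157). Mcam (CD146), shared by pericytes and endothelium, was at 40.4 and 168 under DMBA against 183 and 463 at 1 week, and was not (log2 difference 0.79, limma adjusted p = 1.00). Acta2, the smooth muscle actin, was at 43.3 and 38.0 under DMBA against 267 and 324 at 1 week, and DESeq2 called it with all libraries (log2 difference 2.86, adjusted p = 0.0276). The 11 genes summed to 349.6 and 488 under DMBA against 1130.4 and 2239 at 1 week.

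Of 6 lymphatic endothelial genes measured, 4 were higher at 1 week without overlap (14.0% of genes tested) and 0 were called in limma. Their median log2 difference was 1.77 with all libraries and 0.52 without on-DMBA replicate 1. Flt4, a VEGF receptor of lymphatic vessels named after its values were seen, was called higher without on-DMBA replicate 1 (limma adjusted p = 0.00608). Lyve1, a hyaluronan receptor that macrophages share, was at 1.90 and 116 under DMBA against 40.5 and 44.4 at 1 week, with overlap. Pdpn, which keratinocytes and fibroblasts also express, was at 66.0 and 79.0 under DMBA against 121 and 82.2 at 1 week, and Reln at 0.356 and 104 under DMBA against 33.8 and 42.4 at 1 week. The defining factor Prox1, named after its values were seen, was at 0.475 and 2.51 under DMBA against 5.63 and 3.42 at 1 week.

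Of 16 ligands and partners of the 10 genes tested, 4 were higher at 1 week without overlap (Podxl, Selplg, Tgfb1 and Tgfbr3; 14.0% of genes tested), 0 were lower (9.14%) and 0 were called. The difference was above 0 in 13 of the 16, with a median log2 difference of 0.68 with all libraries and 0.18 without on-DMBA replicate 1. Tgfbr1, at 113 and 294 under DMBA against 195 and 453 at 1 week, and Ptpn11, a phosphatase in TIE2 signalling, at 235 and 149 under DMBA against 136 and 169 at 1 week, were among those with overlap. Selplg, the leukocyte ligand of the selectins, was at 1.31 and 27.8 under DMBA against 31.3 and 34.7 at 1 week. Podxl, a sialomucin related to Cd34, was at 0.356 and 13.6 under DMBA against 54.4 and 120 at 1 week, and it alone was called higher without on-DMBA replicate 1 (log2 difference 2.52, limma adjusted p = 0.000459). In the leukocyte adhesion cascade of the vessel wall, 4 of 10 tested genes were higher without overlap (Icam1, Jam2, Jam3 and Itgal; 14.0% of genes tested), and 0 were called with all libraries or without on-DMBA replicate 1. Their median log2 difference was 2.52 and 0.11 in those fits. Vcam1, the endothelial and stromal ligand of leukocyte integrins, was at 4.27 and 541 under DMBA against 389 and 385 at 1 week, unlike the selectins highest in on-DMBA replicate 2. The leukocyte integrin genes Itgam, at 0.95 and 575 under DMBA against 309 and 464 at 1 week, and Itgb2, at 0.475 and 179 under DMBA against 140 and 251 at 1 week, also had overlapping groups.

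Leukocytes, platelets and fibroblasts express some of the 10 genes, and the part of their RNA in the endothelial result was not tested. Of 10 leukocyte genes tested, 0 were higher at 1 week without overlap (14.0% of genes tested). All 10 had a difference above 0 with all libraries, with a median log2 difference of 3.45, and the median was -0.27 without on-DMBA replicate 1. Csf1r, the macrophage growth factor receptor, was at 1.31 and 1707 under DMBA against 696 and 840 at 1 week, Lyz2 at 1.19 and 8839 under DMBA against 3112 and 6663 at 1 week and Ptprc at 2.49 and 632 under DMBA against 393 and 850 at 1 week. Of 13 platelet and megakaryocyte genes, whose list matters because platelets carry Selp, Vwf, Pecam1 and Esam products, 10 were tested and 2 were higher without overlap (Itgb3 and Tubb1; 14.0% of genes tested). Their median log2 difference was 0.90 with all libraries and 0.42 without on-DMBA replicate 1, and 0 were called in either fit. The summed level of these 13 was 10.4 and 366 under DMBA against 386 and 405 at 1 week, of which Pf4 took 0.119 and 306 under DMBA against 227 and 270.4 at 1 week. Itgb3, which endothelial cells and macrophages also express, was at 0.95 and 38.4 under DMBA against 122 and 115 at 1 week, and Ppbp was at 0.356 and 10.2 under DMBA against 5.78 and 9.13 at 1 week. Of the platelet receptor genes, Gp6 was at or below 0.156 scaled CPM and Gp9 at or below 1.88 in every library. Itga2b, Gp5, Gp1bb and Gp1ba were higher, reaching 7.19, 6.72, 5.47 and 3.75 in 1-week replicate 1, the highest library for each. For each of them the groups overlapped. In 1-week replicate 2, Gp5 (0.998) and Gp1ba (1.43) were below both on-DMBA libraries. Clec1b was highest in on-DMBA replicate 2, at 1.26. Of 12 fibroblast genes, 7 were higher without overlap (14.0% of genes tested) and 0 were called. All 12 had a difference above 0 with all libraries, with a median log2 difference of 3.68. Without on-DMBA replicate 1 Dpt was called higher (log2 difference 3.50, limma adjusted p = 2.4e-07), Mfap5 was called lower (-2.34, limma adjusted p = 0.00243), and the median of the 12 was 0.29. Col3a1 was at 68.5 and 20658 under DMBA against 20761 and 27662 at 1 week, Col1a2 at 38.5 and 10606 under DMBA against 14287 and 12903 at 1 week, and Col1a1 at 42.9 and 7535 under DMBA against 9360 and 6131 at 1 week.

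Basal keratinocyte genes also differed between on-DMBA replicate 2 and the later libraries. With all libraries 0 of 9 were without overlap and their median log2 difference was -0.19, while without on-DMBA replicate 1 limma called 8 of 9 higher (2.35% of genes tested), with a median of 3.24. Cdh3, the sorted antigen, was at 325 and 3.23 under DMBA against 42.8 and 30.4 at 1 week. Krt14 was at 26654 and 202 under DMBA against 2644 and 1944 at 1 week, Krt5 at 11731 and 55.3 under DMBA against 539 and 613 at 1 week, and Col17a1 at 3921 and 46.7 under DMBA against 601 and 235 at 1 week. The calls of endothelial genes without on-DMBA replicate 1 thus stood beside calls in the same direction of genes of the sorted epithelium, and the part of that library's makeup in either was not tested. Of the 9 bulge genes, 2 were higher (Nfatc1 and Lgr5) and 1 was lower (Sox9) without overlap (14.0% and 9.14% of genes tested), and 0 were called with all libraries. Without on-DMBA replicate 1, Krt15 was called higher (log2 difference 3.40, limma adjusted p = 2.58e-07).

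**Figure D4:**
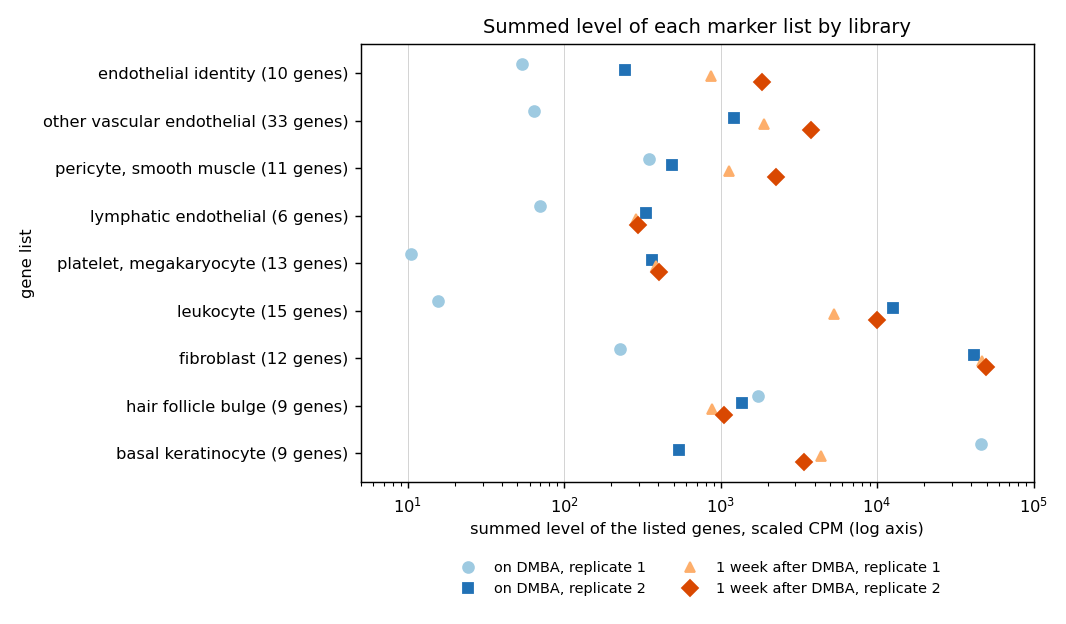
Summed scaled CPM (log axis) of the measured genes of each list in each library. For the endothelial identity, other vascular endothelial, pericyte, fibroblast and platelet lists each 1-week sum exceeds each on-DMBA sum. The 1-week sums are 3.52 and 7.50 times that of on-DMBA replicate 2 for the endothelial identity list. They are 1.14 and 1.20 times it for fibroblast and 1.05 and 1.11 times it for platelet genes. The lymphatic, leukocyte and bulge sums of on-DMBA replicate 2 lie above those of both 1-week libraries.

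The genes whose pattern over the 4 libraries lay nearest to the median pattern of the 10 were Podxl, Gimap6, Cyp4f18, Myh11 and Robo4. The measure was the Euclidean distance between log2 values centred on each gene's own mean over 4 libraries, on-DMBA replicate 1 included, and it was 0.25 for Podxl, 0.29 for Gimap6, 0.30 for Cyp4f18, 0.37 for Myh11 and 0.41 for Robo4. Gimap6, a GTPase of the immunity-associated family, was at 0.119 and 9.33 scaled CPM under DMBA against 27.4 and 74.6 at 1 week. Cyp4f18, a cytochrome P450, was at 0.119 and 9.69 under DMBA against 28.0 and 76.9 at 1 week. Myh11, the smooth muscle myosin, was at 0.831 and 13.6 under DMBA against 60.8 and 180.3 at 1 week, and Robo4, an endothelial guidance receptor, at 0.356 and 10.4 under DMBA against 38.1 and 73.2 at 1 week. Among the 10 genes themselves the distance was smallest for Tek (0.16) and Pecam1 (0.31) and largest for Eng (1.30), Vwf (1.53) and Cd34 (3.75).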

How the data were processed

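RNA of sorted tumour cells from 4 mice, 2 per group, was depleted of ribosomal RNA and made into dUTP stranded libraries, per the labels' protocols. Per the submitters' processing notes, the tools were HTSeq, TopHat2 2.1, CASAVA 1.8.2 and edgeR 3.2.3 and the build was mm9. The authors deposited 1 table of normalised signal per gene, called CPM, whose columns sum to between 867697 and 1149290 and not to a common total. All values were whole multiples of 1 step per library (100% within 0.01 reads), so whole reads were recovered, 9678682, 5635945, 5551937 and 7662159 in the order on-DMBA replicate 1, on-DMBA replicate 2, 1-week replicate 1, 1-week replicate 2. Of the symbols, 90.1% matched a reference list of gene symbols.

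Genes reaching 1 scaled CPM in 2 or more libraries were fitted with limma 3.58.1 (R 4.3.3, eBayes with trend, two-sided, Benjamini-Hochberg over 15419 genes, threshold 0.05) on log2(scaled CPM + 0.5). Fold changes on this scale understate those of low genes. The design had planned for plain CPM, and its log-scale test was kept. An exact permutation test of 2 against 2 cannot go below p = 0.333. The limma fit was tested on simulated counts with 2 libraries a group. With a spread between replicates of 0.7 times the mean, it recovered 0% of 4-fold and 46% of 32-fold changes. With a spread of 0.3 times the mean it recovered 76% and 100%. At a wide spread a gene that was not called may therefore still differ. Alternatives were pseudocounts of 0.1 and 1, a filter of 5 and none, median ratio scaling, quantile normalization, no trend, a replicate block, each library left out, and edgeR 4.0.16 and DESeq2 1.42.0 on recovered reads. Counting intervals are exact at 95% (Poisson for levels, Clopper-Pearson for ratios) and cover counting error only. Reads carry no molecular identifiers.

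The 10 genes, the other lists and the rules were chosen with earlier results of these data known. Named genes were the 10, the 3 most abundant of each list, Cdh5, Kdr, Flt1, Cldn5, Cdh3, Krt14, Ptprc, Col3a1 and the 5 nearest patterns. Other genes were named after their values were seen.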

Additional observations from a re-analysis of the deposited data

How the results depend on the processing

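The groups did not overlap in any of the 10 endothelial identity genes. Their log2 difference could therefore not turn negative with another pseudocount, filter or trend, a block, or 1 library left out. All 10 had a positive log2 difference under each of the 14 alternatives. The number of the 10 called by limma or on recovered reads was 0 in all but 3 of them, and leaving out 1 library at a time gave between 0 and 10 called of these genes, between 0 and 3761 genes called in all, and a median log2 difference of the 10 from 2.47 to 6.31, with the high counts where an on-DMBA library was left out (516 genes called without replicate 1 and 3761 without replicate 2). With a replicate block, limma called 9 of the 10 (all but Cd34) and 288 genes in all, 285 of them higher. The numbers mark different mice, so the samples share only a number, and same-numbered deviations from the group means correlated at 0.015 across 15419 genes. DESeq2 called 19 genes and none of the 10. Quantile normalization moved the median of all genes from -0.02 to -0.15 on the log2 scale, with the median of the 10 then at 4.10. In on-DMBA replicate 1, the library with the most reads, 9 of the 10 genes had 22 reads or fewer, so their ratios to that library are imprecise.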
